A study of Mus musculus with 12 samples.

Results

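The cyclooxygenases, prostanoid synthases and prostanoid receptors were followed as 10 genes chosen by symbol: Ptgs1, Ptgs2, Ptges, Ptgds, Hpgds, Tbxas1, Ptgis, Hpgd, Ptger2 and Ptger4. Each symbol was matched to 1 Ensembl identifier among the 35697 of the 2018 batch and the 55637 of the 2022 batch. All 10 passed the filter on low counts, among 19536 genes tested for the injury and 17363 tested for zileuton. The mice were adult male wild-type C57BL/6J animals, and bulk RNA of brain tissue was sequenced from 3 mice per group. Traumatic brain injury (TBI) was made by controlled cortical impact, a blow of a 3 mm tip to the exposed cortex at 1.5 m/s and 1.5 mm depth with a dwell of 100 ms. Sham mice had the surgery without the blow. Sham and TBI tissue formed the batch of 2018, and the injured mice were labelled as taken at 7 days. The batch of 2022 held TBI mice and TBI mice that received zileuton, dissolved in corn oil, by intraperitoneal injection (10 mg/kg daily). The titles of all zileuton libraries give 7 days, whereas the source labels give 7, 8 and 9 days. The labels call the controls of 2022 only injured mice, while the study's text speaks of vehicle. The 2022 columns carry the numbers 2, 3 and 6, which are used as library names here, and they could not be tied to single samples within a group.

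Cyclooxygenases convert arachidonic acid, the fatty acid that 5-lipoxygenase (the enzyme zileuton inhibits) also uses, into prostaglandin H2. Terminal synthases turn this intermediate into prostaglandin E2, prostaglandin D2, thromboxane A2 or prostacyclin, and each product signals through its own G protein-coupled receptors. A dehydrogenase inactivates prostaglandins such as prostaglandin E2. In the brain Ptgs2 is known as a neuronal activity-regulated gene, Ptgds as an abundant product of meninges, choroid plexus and oligodendrocytes, and Ptgs1, Hpgds and Tbxas1 as genes of microglia and other myeloid cells.

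After injury 5 of the 10 genes were higher and none was lower. The synthases Tbxas1 and Hpgds rose 5.39-fold and 4.52-fold, the prostaglandin dehydrogenase Hpgd 2.47-fold, the inducible prostaglandin E synthase Ptges 2.25-fold and the constitutive cyclooxygenase Ptgs1 1.54-fold. The inducible cyclooxygenase Ptgs2, the lipocalin-type synthase Ptgds, the prostacyclin synthase Ptgis and the receptors Ptger2 and Ptger4 did not pass the threshold. A gene was called at an adjusted p under 0.05, from edgeR's quasi-likelihood test with Benjamini-Hochberg adjustment over all genes tested. Over all genes tested, 28% passed it, 16.8% in the higher and 11.2% in the lower direction. None of the 10 was called with zileuton, where 0% of all genes passed.

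The sequences before the start sites of 7 of these genes are shown, those of the 5 that rose and those of Ptgs2 and Ptgds. The latter 2 carry out the same reactions as Ptgs1 and Hpgds but did not rise. Each is the 250 bases before the RefSeq start, 5′ to 3′ on the strand of the gene, on GRCm38.p6. Capitals mark GAGGAA on either strand (TTCCTC on the opposite one), the purine-rich box known to be bound by PU.1, a transcription factor of myeloid cells.
Ptgs1 (chr2:36230176-36230425, plus strand): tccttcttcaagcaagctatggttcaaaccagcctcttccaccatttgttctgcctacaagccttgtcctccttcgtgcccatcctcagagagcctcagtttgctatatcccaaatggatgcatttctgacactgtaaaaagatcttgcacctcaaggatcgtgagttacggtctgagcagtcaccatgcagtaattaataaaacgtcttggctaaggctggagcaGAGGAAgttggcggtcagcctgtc
Ptges (chr2:30903298-30903547, minus strand): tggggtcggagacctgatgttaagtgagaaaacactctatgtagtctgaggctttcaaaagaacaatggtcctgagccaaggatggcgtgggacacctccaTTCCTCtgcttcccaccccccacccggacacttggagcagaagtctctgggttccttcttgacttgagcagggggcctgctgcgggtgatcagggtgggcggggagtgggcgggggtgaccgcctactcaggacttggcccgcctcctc
Hpgds (chr6:65144731-65144980, minus strand): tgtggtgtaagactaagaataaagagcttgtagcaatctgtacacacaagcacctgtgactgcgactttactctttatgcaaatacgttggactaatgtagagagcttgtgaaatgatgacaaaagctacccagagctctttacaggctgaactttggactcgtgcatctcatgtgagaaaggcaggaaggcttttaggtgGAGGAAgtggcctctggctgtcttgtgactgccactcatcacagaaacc
Tbxas1 (chr6:38918736-38918985, plus strand): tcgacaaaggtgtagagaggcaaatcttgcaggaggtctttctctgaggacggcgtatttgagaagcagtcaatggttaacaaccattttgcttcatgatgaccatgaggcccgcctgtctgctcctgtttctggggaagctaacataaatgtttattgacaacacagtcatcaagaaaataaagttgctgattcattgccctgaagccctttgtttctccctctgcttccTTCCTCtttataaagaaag
Hpgd (chr8:56294302-56294551, plus strand): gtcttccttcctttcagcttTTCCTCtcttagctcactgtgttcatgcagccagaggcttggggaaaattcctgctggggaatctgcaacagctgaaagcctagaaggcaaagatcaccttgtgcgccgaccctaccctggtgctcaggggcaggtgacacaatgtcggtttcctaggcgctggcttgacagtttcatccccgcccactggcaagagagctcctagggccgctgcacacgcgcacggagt
Ptgs2 (chr1:150099781-150100030, plus strand): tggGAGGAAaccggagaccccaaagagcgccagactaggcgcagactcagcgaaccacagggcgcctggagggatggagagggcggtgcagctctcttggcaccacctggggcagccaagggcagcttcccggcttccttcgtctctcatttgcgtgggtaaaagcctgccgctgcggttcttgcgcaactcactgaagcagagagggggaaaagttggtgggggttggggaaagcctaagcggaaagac
Ptgds (chr2:25469750-25469999, minus strand): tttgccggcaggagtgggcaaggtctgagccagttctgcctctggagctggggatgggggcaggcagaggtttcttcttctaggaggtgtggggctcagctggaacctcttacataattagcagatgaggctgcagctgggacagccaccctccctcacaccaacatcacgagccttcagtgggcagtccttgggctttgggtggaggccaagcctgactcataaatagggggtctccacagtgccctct

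A RefSeq window was given for 9 of the 10 genes, and Ptgis was not in the table. The box stood in the windows of all 5 genes that rose and in 1 of the 4 windows of the others, that of Ptgs2. It was found in 23.3% of the 32851 mouse windows of this length. The motifs were chosen with earlier results of these data known, and the genes were split by their calls in the same data. These counts are therefore a description without a test, and binding of PU.1 was not tested. The box began 24 bases before the start in Ptgs1, 49 in Hpgds, 19 in Tbxas1, 149 in Ptges, 230 in Hpgd and 247 in Ptgs2. In Tbxas1 the next letters hold a TATAAA box 11 bases before the start, found in 12.4% of all windows and in no other of the 9. The GC box GGGCGG was in 4 of the 9 (32.7% of all windows) and CCAAT in 2 (33.8%). The AP-1 letters TGANTCA were in the windows of Ptgds and Tbxas1 (6.75%). The cyclic AMP response letters CGTCA and the E box CACGTG were in none of the 9 windows, against 17.8% and 6.02% of all windows. Bases past the start used were not searched, so a gene may hold these letters there. Both strands were searched, a match is only a run of letters, and the starts used for Tbxas1, Ptges, Hpgds and Ptgds lie inside the span of the gene in GENCODE.

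The libraries of 2018 held 42929862 to 48684674 counts and those of 2022 held 27845562 to 35453257. Levels below are counts per 1000000 (CPM) after TMM scaling unless another unit is named, and ± is the SD over 3 mice. The markers of microglia rose in 8 of 8 genes after injury (summed CPM 222 to 254 in sham and 580 to 739 in TBI). The choroid plexus markers, at a summed 1088 CPM in sham mouse 1 but at 19.9 and 56.1 in sham mice 2 and 3, lay at 1172 to 1359 in the TBI mice of 2018. In 2022 that sum was 9.80, 476 and 1057 in TBI libraries 2, 3 and 6 and 1474, 1280 and 14.6 in zileuton libraries 2, 3 and 6. Results are therefore also given for the libraries with a sum of at least 100 CPM, a choice made after seeing the data, which leaves 1 sham mouse whose spread is assumed to match the others.

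**Figure D1:**
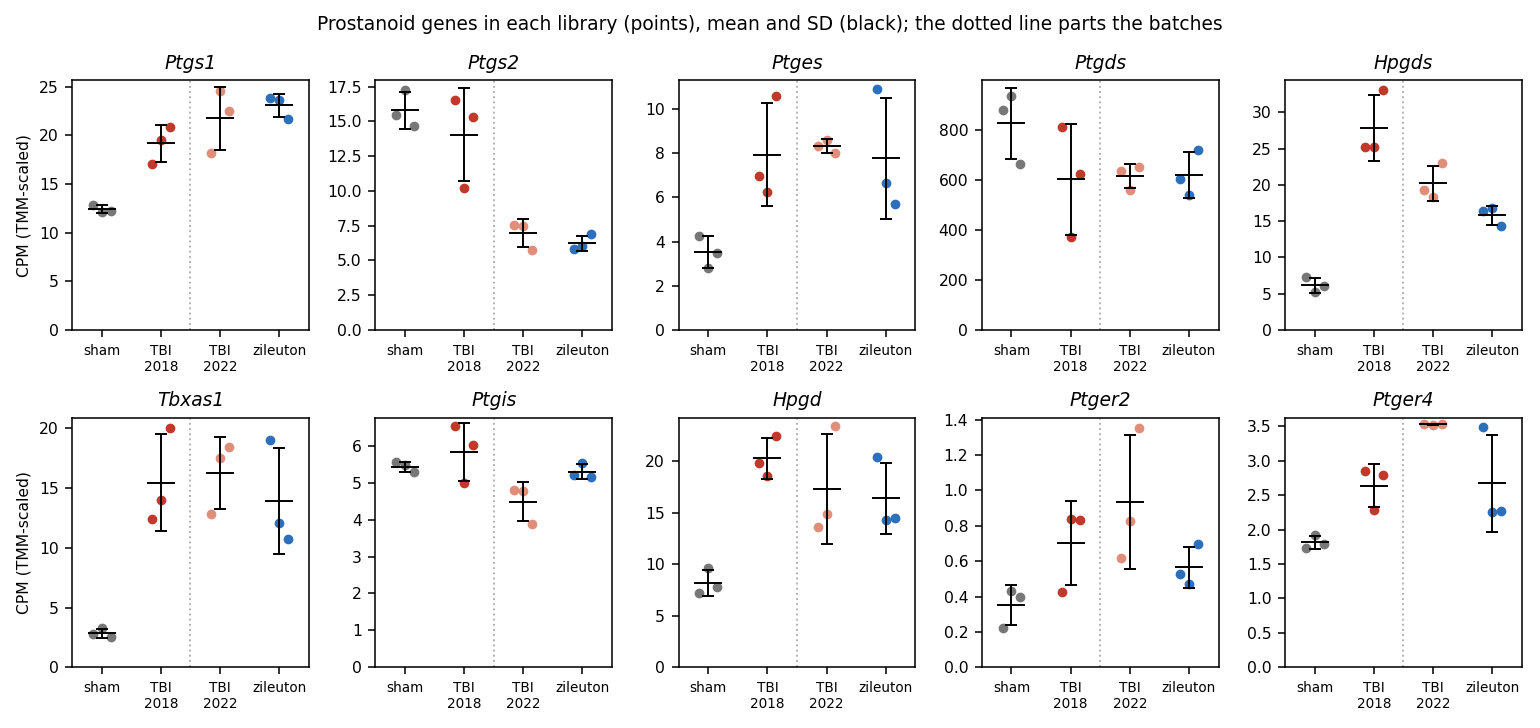
CPM of each of the 10 genes (vertical axes, each from 0) in sham, TBI of 2018, TBI of 2022 and zileuton libraries, where points are mice and black marks give mean and SD (n = 3). The TBI points of Ptgs1, Ptges, Hpgds, Tbxas1, Hpgd and Ptger4 lie above all sham points. Levels are not compared across the dotted line, since the batches were processed differently.

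The cyclooxygenases were taken first. Ptgs1 (ENSMUSG00000047250, chr2:36230426-36252272 on GRCm38, plus strand) encodes COX-1. It was at 12.8, 12.2 and 12.2 CPM in the sham mice and at 17.1, 19.6 and 20.8 CPM in the TBI mice. Every TBI value exceeded every sham value, and the sham mice differed among themselves by less than 1 CPM. Its mean was 12.4 ± 0.373 CPM in sham and 19.2 ± 1.90 CPM in TBI mice (SD, n = 3 each), which is 0.63 higher on the log2 scale (SE 0.109, edgeR adjusted p = 0.00323). With the choroid plexus libraries alone the log2 fold change was 0.55 and the adjusted p of 0.124 no longer passed.

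Ptgs2 (ENSMUSG00000032487, chr1:150100031-150108227, plus strand) encodes COX-2. Sham mice had 15.5, 17.2 and 14.7 CPM and TBI mice 16.5, 10.2 and 15.3 CPM. The groups overlapped, and TBI mouse 2 was below every other mouse. On the log2 scale TBI differed from sham by -0.17 (SE 0.175, edgeR adjusted p = 0.516), with a 95% interval from -0.57 to 0.23, that is from 32.6% lower to 17.1% higher. Without TBI mouse 2 the sign turned, to 0.01.

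Per gene length the balance of the cyclooxygenases moved. In FPKM, which divides counts by depth and gene length, Ptgs1 made up 49.5%, 45.4% and 49.6% of the sum of Ptgs1 and Ptgs2 in the sham mice. In the TBI mice the share was 55.0%, 69.3% and 61.6%, which did not overlap the sham range. The mean rose by 13.8 percentage points, from 48.2% ± 2.38 to 62.0% ± 7.18 (SD, n = 3 each). The exact two-sided permutation p was 0.1, the smallest that 3 against 3 mice allow.

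**Figure D2:**
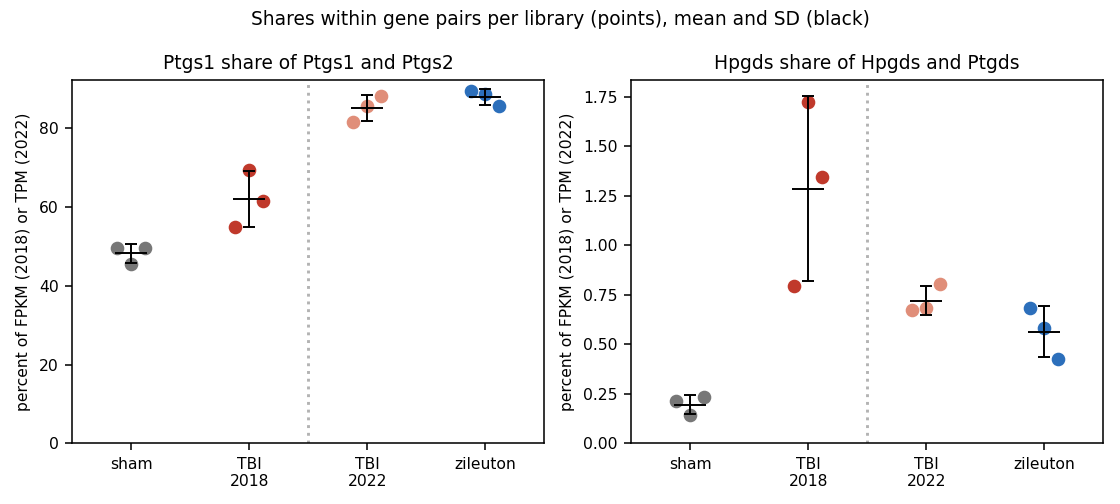
Percent of the FPKM (2018) or TPM (2022) of a gene pair that the first gene takes, for Ptgs1 with Ptgs2 and for Hpgds with Ptgds. Points are mice, black marks give mean and SD (n = 3), and both shares lie higher in all TBI mice of 2018 than in all sham mice.

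Of the terminal synthases of prostaglandin D2, Hpgds passed the threshold and Ptgds did not. Hpgds (ENSMUSG00000029919, chr6:65117293-65144908, minus strand), the hematopoietic form, was at 7.28, 5.19 and 6.02 CPM in the sham mice and at 25.2, 25.2 and 33.0 CPM in the TBI mice. The lowest TBI value was more than 3 times the highest sham value. TBI mice were higher by 2.18 on the log2 scale (SE 0.163, edgeR adjusted p = 3.45e-05), and 1.90 with an adjusted p of 0.0103 in the choroid plexus libraries.

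Ptgds (ENSMUSG00000015090, chr2:25466709-25470046, minus strand), the lipocalin-type form, was at 878, 932 and 664 CPM in the sham mice and at 810, 370 and 623 CPM in the TBI mice. TBI mouse 1 fell within the sham range and the other 2 lay below it. The log2 fold change was -0.46 (edgeR adjusted p = 0.212), with a 95% interval from -1.02 to 0.11. Without TBI mouse 1 it was -0.73 with an adjusted p of 0.046, and without TBI mouse 2 it was -0.20 with an adjusted p of 0.410, so the size rested on single libraries. The summed markers of meningeal fibroblasts, cells known to make it, ranged from 152 to 156 CPM in sham mice and from 194 CPM in TBI mouse 2 to 777 CPM in TBI mouse 3. Their part in the Ptgds level was not tested.

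In FPKM Hpgds made up 0.212%, 0.143% and 0.232% of the sum of Hpgds and Ptgds in the sham mice, and 0.794%, 1.72% and 1.34% in the TBI mice. The ranges did not overlap, and the mean went from 0.196% ± 0.0471 to 1.29% ± 0.467 (SD, n = 3 each, exact two-sided permutation p = 0.1, the smallest possible). Hpgds thus stayed under 2% of the pair in every TBI mouse.

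Tbxas1 (ENSMUSG00000029925, chr6:38875404-39084585, plus strand), which makes thromboxane A2, was at 2.82, 3.26 and 2.50 CPM in the sham mice. The TBI mice had 12.4, 13.98 and 20.01 CPM, all far above the sham range. The log2 fold change of 2.43 (SE 0.211, edgeR adjusted p = 7.28e-05) was the largest of the 10, and 2.42 with an adjusted p of 0.0147 in the choroid plexus libraries. The gene overlaps Hipk2 on the opposite strand, and whether counting used strand is not given in the sources used here.

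Ptges (ENSMUSG00000050737, chr2:30889471-30929863, minus strand), the microsomal prostaglandin E synthase coupled to COX-2, was at 4.24, 2.81 and 3.49 CPM in the sham mice. In the TBI mice it was at 6.95, 6.24 and 10.6 CPM, without overlap. It rose by 1.17 on the log2 scale (SE 0.245, edgeR adjusted p = 0.00788). In the choroid plexus libraries it was 0.87 with an adjusted p of 0.200, past the threshold no longer.

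Ptgis (ENSMUSG00000017969, chr2:167191805-167240604, minus strand), which makes prostacyclin in vessel walls and fibroblasts, did not separate the groups. Sham mice had 5.55, 5.47 and 5.28 CPM and TBI mice 6.52, 4.99 and 6.01 CPM. Its log2 fold change was 0.10 (SE 0.161, edgeR adjusted p = 0.675), and the 95% interval ran from 16.5% lower to 38.4% higher. The bounds lie below a 2-fold change in either direction.

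Hpgd (ENSMUSG00000031613, chr8:56294585-56321043, plus strand), the dehydrogenase that inactivates prostaglandins, rose with the synthases. It was at 7.19, 9.64 and 7.74 CPM in the sham mice and at 19.9, 18.5 and 22.4 CPM in the TBI mice. All TBI values exceeded all sham values, with a log2 fold change of 1.31 (SE 0.141, edgeR adjusted p = 0.000248). In the choroid plexus libraries it was 1.46 with an adjusted p of 0.0120.

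The receptors of prostaglandin E2 had few counts. Ptger2 (ENSMUSG00000037759, chr14:44988195-45003820, plus strand), the EP2 receptor, had 10, 20 and 19 counts in the sham mice and 21, 41 and 36 counts in the TBI mice. After scaling, TBI mouse 1 (0.427 CPM) lay within the sham range of 0.222 to 0.432 CPM. The log2 fold change of 0.99 (SE 0.445, edgeR adjusted p = 0.134) had a 95% interval from -0.02 to 1.998, so at this depth neither no change nor a 3-fold rise could be set aside.

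Ptger4 (ENSMUSG00000039942, chr15:5206661-5244187, minus strand), the EP4 receptor, was at 1.73, 1.92 and 1.79 CPM in the sham mice and at 2.84, 2.28 and 2.79 CPM in the TBI mice. The groups did not overlap, yet the log2 fold change of 0.54 (SE 0.213, edgeR adjusted p = 0.0929) missed the threshold. It overlaps Ttc33 on the opposite strand. In all, 6 of the 10 genes were higher without overlap between the groups, where 24.6% of all genes tested were. The median log2 fold change of the 10 was 0.81, beside 0.02 over all genes tested.

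**Figure D3:**
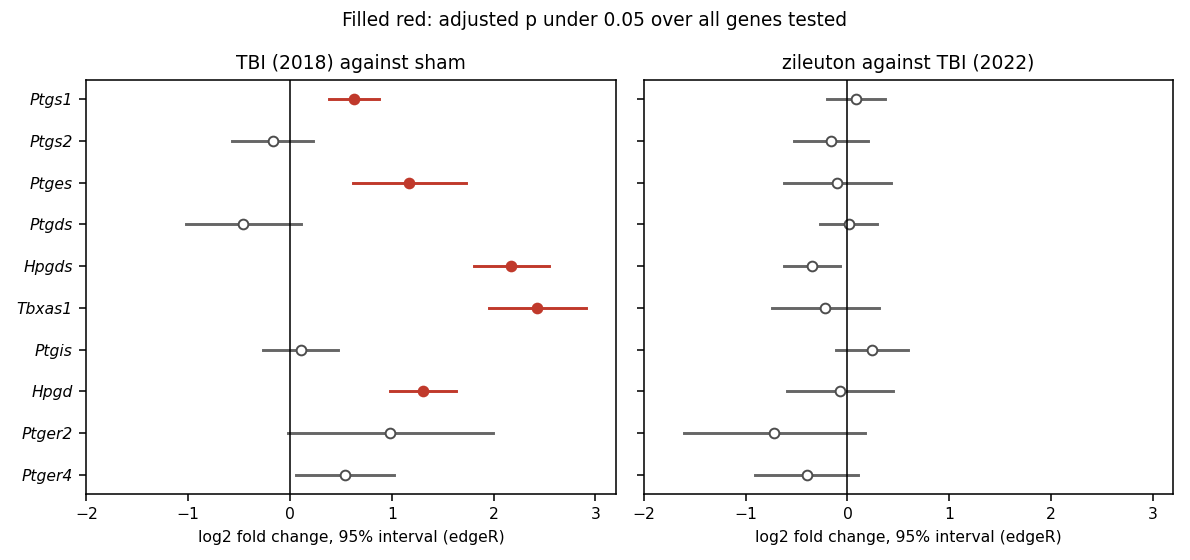
Log2 fold changes (horizontal axes) with 95% intervals from edgeR for the 10 genes, TBI against sham on the left and zileuton against TBI on the right (n = 3 each). Filled red points passed the threshold: 5 after injury, from 0.63 for Ptgs1 to 2.43 for Tbxas1, and none with zileuton.

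Levels of different genes were compared per length. In sham mice Ptgds stood far above the rest at 491 ± 83.8 FPKM, followed by Hpgd at 4.78 ± 0.765, Ptgs2 at 3.38 ± 0.286, Ptgs1 at 3.14 ± 0.0779 and Ptgis at 2.08 ± 0.0443 (SD, n = 3 each). Then came Hpgds at 0.941, Ptges at 0.877, Tbxas1 at 0.309, Ptger4 at 0.268 and Ptger2 at 0.0665 FPKM. The neighbours Ptgs2 and Ptgs1, Hpgds and Ptges, and Tbxas1 and Ptger4 overlapped between mice, and the other neighbours did not.

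In the TBI mice of 2018 the order began with Ptgds at 369 ± 132 and Hpgd at 12.2 ± 1.02 FPKM. Ptgs1 at 5.02 ± 0.501 and Hpgds at 4.40 ± 0.657 FPKM came next and overlapped each other, but lay above Ptgs2 at 3.11 ± 0.699 (SD, n = 3 each). Ptgs2, Ptgis, Ptges and Tbxas1 followed in this order, each overlapping the next, down to 1.73 FPKM for Tbxas1, which stood above Ptger4 at 0.403 FPKM. Hpgds moved from place 6 to place 4 and Ptgs2 from 3 to 5, with Ptger2 last in both groups.

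**Figure D4:**
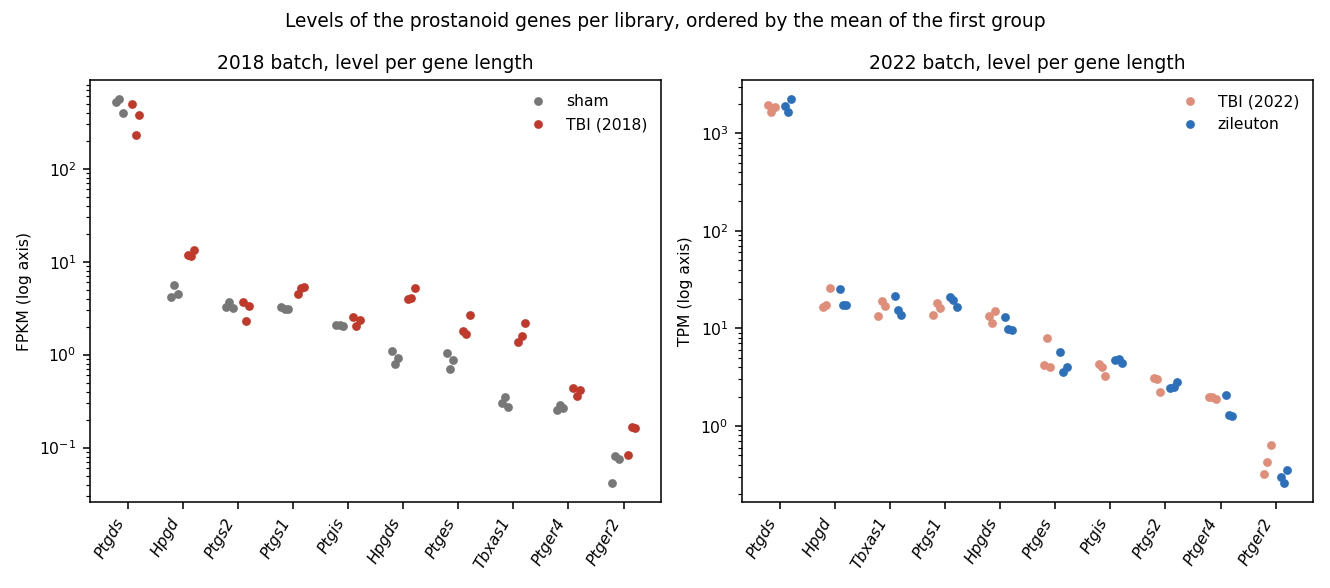
Levels per gene length on log axes, FPKM in the 2018 batch and TPM in the 2022 batch, with 1 point per mouse and the genes ordered by the mean of sham or of TBI. Ptgds stands about 100 times above the next gene in sham mice (491 against 4.78 FPKM), and Ptger2 is last in all 4 groups.

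In the 2022 batch the values are TPM, and they rank Tbxas1 differently. It stood at 16.5 ± 3.04 TPM in TBI mice, beside Hpgd at 20.0 ± 5.33, Ptgs1 at 16.1 ± 2.30 and Hpgds at 13.3 ± 1.90 TPM (SD, n = 3 each), and these neighbours overlapped. The length behind the values differs between the batches: the FPKM imply 3.02 times the median gene length for Tbxas1, and the TPM 0.705 times. The same ratios were 2.13 and 1.14 for Hpgds, 2.21 and 1.37 for Ptger4, and 0.547 and 0.252 for Ptgds. The places of these genes among the others depend on the length used. Ptgs2 was at 2.79 ± 0.506 TPM, place 8 of the 10.

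Beside the 10, a list of 19 other genes of the pathway held 18 that were tested. After injury 4 of these 18 were higher and 2 lower, where 16.8% of all genes tested were higher and 11.2% lower. Both counts lie near those shares. Ptgr1, a reductase that inactivates prostaglandins and leukotriene B4, was at 1.26, 1.25 and 0.863 CPM in the sham mice and at 5.39, 4.23 and 7.89 CPM in the TBI mice. The groups were far apart, with a log2 fold change of 2.37 (SE 0.289, edgeR adjusted p = 0.000497). In the choroid plexus libraries it was 2.17 (adjusted p = 0.0408).

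The prostaglandin D2 receptor Ptgdr was at 0.599, 0.800 and 0.442 CPM in the sham mice and at 1.34, 1.07 and 1.55 CPM in the TBI mice (log2 fold change 1.10, SE 0.336, edgeR adjusted p = 0.0387). Cbr2, a carbonyl reductase that acts on prostaglandins, was at 1.26, 1.51 and 0.758 and then at 2.97, 1.72 and 4.202 CPM (1.33, SE 0.381, adjusted p = 0.0305). Abcc4, which exports prostaglandin E2, was at 9.19, 7.63 and 9.32 and then at 12.03, 13.8 and 11.2 CPM (0.50, SE 0.139, adjusted p = 0.0265). None of these 3 overlapped between groups. Ptgdr and Cbr2 lost the call without sham mouse 1, sham mouse 3, TBI mouse 1 or TBI mouse 3 (adjusted p between 0.0610 and 0.128). Abcc4 lost it without any 1 sham mouse or without TBI mouse 2 (0.0619 to 0.0980). In the choroid plexus libraries Ptgdr, Cbr2 and Abcc4 were higher by 1.10, 1.19 and 0.40 on the log2 scale, and with 1 sham mouse none passed (adjusted p = 0.230, 0.252 and 0.298).

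Of the lower genes, Ptger3, the EP3 receptor, was at 5.68, 4.80 and 4.04 CPM in the sham mice and at 2.87, 2.59 and 2.58 CPM in the TBI mice. All TBI values were below all sham values (log2 fold change -0.85, SE 0.195, edgeR adjusted p = 0.0117). Prxl2b, prostamide/prostaglandin F synthase, went from 80.6, 84.3 and 76.6 to 59.7, 58.3 and 66.0 CPM (-0.39, SE 0.0779, adjusted p = 0.00612). In the choroid plexus libraries, with 1 sham mouse, the changes were no smaller (-1.12 and -0.43), and the adjusted p of 0.0570 and 0.0899 did not pass. Ptger3 also missed the threshold in the 3 limma fits to FPKM (adjusted p = 0.0542, 0.0530 and 0.0904).

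Abundant enzymes, namely the cytosolic prostaglandin E synthase Ptges3 and the carbonyl reductase Cbr1, did not pass. Ptges3 had 78.0 ± 5.78 CPM in sham and 84.4 ± 4.11 CPM in TBI mice (SD, n = 3 each, log2 fold change 0.11, 95% interval -0.07 to 0.29). Cbr1 had 62.0 ± 2.41 and 61.5 ± 0.734 CPM (-0.01, 95% interval -0.17 to 0.14). Per length, Ptges3 at 34.5 FPKM in sham mice stood well above Ptges at 0.877 FPKM.

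Among all 9 prostanoid receptors, Ptger3 had the highest level in sham mice, 0.835 ± 0.138 FPKM, without overlap with Ptger4 at 0.268 ± 0.0156 FPKM (SD, n = 3 each). In TBI mice Ptger3 at 0.479, Ptgdr at 0.421 and Ptger4 at 0.403 FPKM overlapped, so that no receptor stood apart. The receptors Ptger1, Ptgfr, Ptgir and Tbxa2r did not pass in either direction, and Ptgdr2 was too low to be tested.

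Markers of several cell types that can carry these enzymes were higher after injury, while the platelet and T cell lists were mixed. Of 8 markers of activated microglia and macrophages, 8 were higher after injury (summed CPM 31.5 to 36.8 in sham, 518 to 797 in TBI). Of 8 markers of border macrophages and monocytes 6 were higher (14.3 to 16.3, then 41.1 to 74.6), and of 5 tested neutrophil markers 5 (0.648 to 1.41, then 16.5 to 63.5). The mast cell list had 1 tested gene, which was higher (0.173 to 0.466, then 1.81 to 7.92). The platelet list had 1 higher and 1 lower of 4 (5.43 to 6.90, then 7.96 to 27.4), and the T cell list 1 higher of 2 (0.526 to 0.777, then 0.793 to 2.18). In each list no marker was at 0 in all 6 libraries. Their part in the rises was not tested, and in bulk tissue more cells of a type and more RNA per cell cannot be told apart.

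Set beside the microglia markers, the 5 genes did not keep 1 ratio. Per 100 CPM of the summed microglia list, Hpgds went from 2.57 ± 0.471 to 4.34 ± 0.132 CPM and Tbxas1 from 1.19 ± 0.0859 to 2.39 ± 0.290 CPM (SD, n = 3 each), without overlap. Ptgs1 went the other way, from 5.17 ± 0.370 to 3.01 ± 0.226 CPM, also without overlap. Hpgd (3.40 ± 0.447 and 3.18 ± 0.213) and Ptges (1.47 ± 0.320 and 1.22 ± 0.198) overlapped. The microglia sum itself rose, from 222 to 254 CPM in sham to 580 to 739 CPM in TBI mice. A gene that rose less than this sum therefore falls on the ratio, and Ptgs2, Ptgds, Ptgis and Ptger4 fell without overlap as well. The directions hold for this list only. No ratio was computed to the activated microglia and macrophage list, which rose more (31.5 to 36.8, then 518 to 797 CPM).

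Other cell types moved as well. Neuron markers were lower in 4 of 8 genes (summed CPM 7131 to 7795 in sham, 4498 to 5692 in TBI). Higher were 5 of 7 astrocyte markers (4582 to 5195, then 8266 to 8537), 4 of 7 oligodendrocyte markers (5296 to 5948, then 6118 to 11120) and 5 of 7 endothelial markers (89.3 to 123, then 130 to 195). Of 7 pericyte and smooth muscle markers 2 were higher (99.2 to 119, then 141 to 156), of 8 meningeal fibroblast markers 5, and of 7 choroid plexus markers none.

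**Figure D5:**
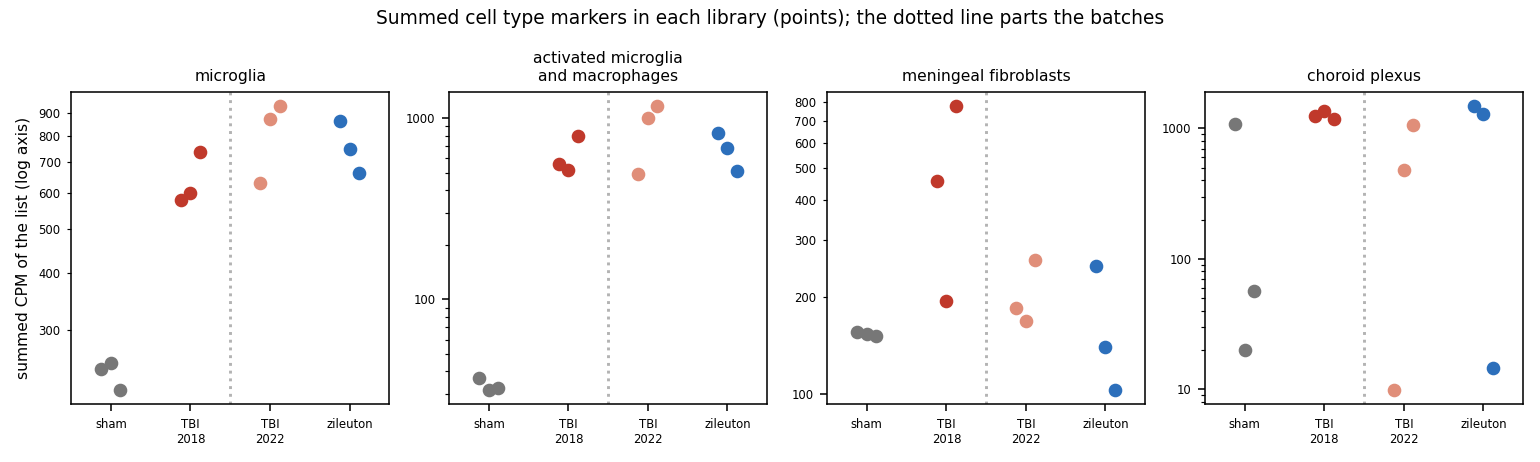
Summed CPM (log axes) of the marker lists of microglia, activated microglia and macrophages, meningeal fibroblasts and choroid plexus, with 1 point per mouse. Every list lies higher in all TBI mice of 2018 than in all sham mice, and choroid plexus markers vary from 19.9 to 1088 CPM among the sham mice.

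Across the 12 libraries, centred within each batch, the genes that rose followed each other. Pearson's r of log2 CPM was 0.96 for Hpgds with Tbxas1, 0.95 for Tbxas1 with Hpgd, 0.92 for Ptgs1 with Tbxas1 and 0.90 for Ptges with Tbxas1. Ptgs2 ran with Ptgds (0.77) and against Ptgs1 (-0.46), and Ptgds against Hpgds (-0.53). The points share the injury contrast and the libraries, so these values are a description without a test.

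The genes of most similar pattern, by the same r among 16515 genes, differed between the members. For Tbxas1 they were B4galt1, Ifi30 and C1qc (0.997 each), for Hpgds Traf3ip3, Gpr65 (0.992 each) and Runx1 (0.990), and for Hpgd Scamp2 (0.984), Pla2g7 and Lims1 (0.983 each). Ptgs1 had Trp53inp1 (0.978), Cxcl9 (0.977) and 4931406C07Rik (0.976), and Ptges had Angptl4 (0.986), Tapbpl (0.973) and Tubb6 (0.969). More than 1100 genes had r over 0.9 with Hpgds, Tbxas1 or Hpgd (1140, 1504 and 1166), whereas 9 had it with Ptgs2.

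The nearest to Ptgs2 were 2900011O08Rik (0.941), Ipcef1 (0.929) and Wee1 (0.924), and to Ptgds Sept8 (0.955), Rabepk (0.944) and Slc22a6 (0.932). Slc22a6 is on the meningeal list. After injury 7 of the 8 markers of that list had a positive log2 fold change, and Ptgds a negative one (-0.46). No r of the whole list with Ptgds was computed, and its part in the Ptgds level was not tested. Ptgis had Stx17 (0.942), Clpb (0.894) and Gmeb2 (0.876), Ptger2 had Nostrin (0.953), Pcbd1 (0.948) and Dpm2 (0.934), and Ptger4 had Prelid2 (0.967), Phb2 (0.953) and Qprt (0.939).

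The second comparison asked whether the prostanoid genes differed in injured mice given the 5-lipoxygenase inhibitor. None of the 10 genes passed with zileuton, and the 1186 genes with an unadjusted edgeR p under 0.05 were 6.83% of those tested, while DESeq2 called 26 genes and none of the 10. The smallest adjusted p over all genes was 0.185. In simulated counts of this design 67% of 2-fold and 89.7% of 4-fold changes were recovered. The noise was drawn for each gene by itself, so differences shared by many genes, as between the choroid plexus sums, were not simulated. With 100 and 97 such genes planted, the adjusted threshold was also easier to pass than where 0% passed. These percentages therefore do not measure what could be detected in the zileuton data. Of the 10 genes, 1 had an unadjusted p under 0.05 (3.9% of all genes had one in its direction), and 3 did not overlap between groups, where 13.6% of all genes did not.

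Hpgds, the gene with that unadjusted p, was at 19.3, 18.4 and 23.0 CPM in TBI libraries 2, 3 and 6 and at 16.4, 16.8 and 14.3 CPM in zileuton libraries 2, 3 and 6. All zileuton values were below all TBI values, by a narrow gap. The log2 fold change was -0.35 (SE 0.120, 95% interval -0.63 to -0.08, edgeR unadjusted p = 0.0184, adjusted p = 0.713). On the TPM scale the groups overlapped (13.4, 11.3 and 15.1 against 13.2, 9.74 and 9.51 TPM). The Hpgds share of the prostaglandin D synthase TPM was 0.720% ± 0.0736 and 0.563% ± 0.130 (SD, n = 3 each), with overlap (exact two-sided permutation p = 0.3).

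The cyclooxygenases did not separate. Ptgs1 was at 18.2, 24.6 and 22.5 CPM in TBI and at 23.9, 23.6 and 21.7 CPM in zileuton libraries (log2 fold change 0.08, 95% interval -0.20 to 0.37, edgeR adjusted p = 0.886). Ptgs2 was at 7.58, 7.49 and 5.78 and at 5.82, 6.00 and 6.87 CPM (-0.16, interval -0.52 to 0.20, adjusted p = 0.824). For both genes the interval lies within a 1.5-fold change in either direction. The Ptgs1 share of their TPM was 85.1% ± 3.38 in TBI and 87.9% ± 2.02 in zileuton mice (SD, n = 3 each, exact two-sided permutation p = 0.3).

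Ptgds was at 634, 559 and 652 CPM in TBI and at 601, 538 and 719 CPM in zileuton libraries, a log2 fold change of 0.01 with a 95% interval from -0.27 to 0.29 (edgeR adjusted p = 0.986). Tbxas1 was at 12.8, 17.5 and 18.4 and at 19.0, 12.1 and 10.7 CPM (-0.22, interval -0.74 to 0.31). These groups overlapped widely, and the sign of Tbxas1 turned in the fits to TPM. Ptges was at 8.33, 8.61 and 7.99 and at 10.9, 6.66 and 5.72 CPM (-0.10, interval -0.63 to 0.43). In TBI library 3 the Ptges TPM was 7.95, against 4.24 and 4.02 in the other TBI libraries, although its CPM were alike. The length implied for Ptges was 0.844 times the median gene length in that library and up to 1.52 times in the others.

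Ptgis was at 4.80, 4.78 and 3.89 CPM in TBI and at 5.197, 5.53 and 5.16 CPM in zileuton libraries. The zileuton values were all higher, on the TPM scale as well, with a log2 fold change of 0.24 (95% interval -0.12 to 0.59, edgeR adjusted p = 0.743). Hpgd was at 13.6, 14.9 and 23.4 and at 20.4, 14.3 and 14.5 CPM (-0.07, interval -0.60 to 0.45), with wide overlap.

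The receptor Ptger4 was at 3.53, 3.52 and 3.53 CPM in TBI and at 3.49, 2.26 and 2.27 CPM in zileuton libraries. The CPM ranges were apart by less than 0.1 CPM, and they overlapped in TPM. The log2 fold change was -0.40 (95% interval -0.91 to 0.11, edgeR adjusted p = 0.721). Ptger2 had 18, 29 and 38 counts against 16, 15 and 20, with overlap in CPM and a log2 fold change of -0.72 (interval -1.61 to 0.17, adjusted p = 0.716), a range too wide to place at this depth.

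Of the 18 other pathway genes tested, none was called with zileuton. Ptges3 was at 61.3, 52.3 and 69.1 CPM in TBI and at 48.9, 47.8 and 51.5 CPM in zileuton libraries, without overlap (log2 fold change -0.30, 95% interval -0.54 to -0.06, edgeR adjusted p = 0.713). Ptgdr was at 3.53, 1.40 and 1.68 and at 1.58, 1.23 and 0.627 CPM (-0.94, interval -1.97 to 0.10), with overlap. Without 1 library the log2 fold change of Ptgdr ranged from -1.23 to -0.42, the latter without TBI library 2. In the choroid plexus libraries it was -0.13. The log2 fold changes of Ptgr1, Cbr2, Cbr1, Abcc4, Ptger3 and Prxl2b lay between -0.29 and 0.07.

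None of the markers of the 14 cell type lists was called with zileuton, and the neutrophil marker Ly6g was at 0 in all 6 libraries. Microglia markers summed to 631 to 928 CPM in TBI and 665 to 863 CPM in zileuton libraries, and activated microglia and macrophage markers to 493 to 1158 and 513 to 823 CPM. The ranges of both sums overlapped.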

How the data were processed

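RNA-seq of mouse brain tissue was deposited for 2 batches of 6 libraries. The authors deposited, for 2018, whole-number raw counts for each gene with FPKM computed from those counts. For 2022 the authors deposited estimated counts, of which 13.7% of values were not whole and which were rounded here although whole counts had been planned for, and TPM. The submitters' processing notes list HISAT2, featureCounts, Subread, DESeq2 and GRCm39 with no role, and strand use is not given in the sources used here. Of the 2018 counts between 1 and 20, 62.3% to 64.4% were even, so the 2018 counts were also divided by 2. All sample columns were used (0 left out).

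Counts were tested in R 4.3.3 with edgeR 4.0.16 (TMM, filterByExpr, glmQLFit, glmQLFTest, two-sided, Benjamini-Hochberg), sham against TBI and TBI against zileuton, each within its batch and without covariates. The log2 fold changes are fitted ones. DESeq2 1.42.0 and limma 3.58.1 served as alternatives. The SE is the fold change divided by the square root of F. In simulated counts with known changes, edgeR recovered 62.6% of 2-fold and 90% of 4-fold changes in the injury design with 7.5% false calls. In the zileuton design 9.94% of calls were false. Both simulations drew noise gene by gene, without differences shared by many genes. Shares were tested with exact permutation in scipy 1.17.1, and figures drawn with matplotlib 3.10.9 in Python 3.11.15.

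The 10 genes, the list of 19 others, the 14 marker lists and the motifs were chosen with earlier results of these data known. By rule, values are given for all 10, for those of the 19 past the threshold or among the 3 of highest mean CPM, and for each of the 10 the 3 genes with the highest r over 12 libraries. The other receptors are named only by whether they passed. The identifiers Prxl2b and Ptgr3 were found under older symbols. Coordinates are from GENCODE M21 on GRCm38, another build than GRCm39. The labels name separate mice only by number, so p-values measure the spread between these libraries. No pair of replicates agreed within sampling noise. Intervals of 95% come from the fit.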

Additional observations from a re-analysis of the deposited data

How the results depend on the processing

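The 5 rises after injury kept their call in all 10 other fits of the 6 libraries and in all 6 fits without 1 mouse. The highest adjusted p were those of Ptges, 0.0467 in limma without a filter and 0.034 in edgeR without sham mouse 3. With the choroid plexus libraries alone, an alternative chosen after seeing the data, 3 of the 10 genes, 1 other pathway gene higher and 0 lower were called, and 1542 of all genes against 5479. The log2 fold changes of Tbxas1 fell to 1.05, of Hpgds to 1.47 and of Ptges to 0.69 in limma fits to log2(FPKM + 1), a scale that understates changes of low genes. Without 1 mouse each, 0 to 1 of the 10 were lower and 1 to 4 of the other pathway genes higher. The count of other genes higher was 1 in limma without a filter and 1 with the replicate block, but 6 with library totals alone, against 4, and that of other genes lower was 1 in each of the limma fits. For zileuton DESeq2 called 26 genes, edgeR without a filter 4 and limma on TPM 4 (pseudocount 1) and 3 (pseudocount 0.1), and none of the 29 prostanoid genes was called in any fit.

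The main fits did not treat mice of the same replicate number as pairs. Deviations of same-numbered libraries correlated at -0.023, -0.094 and -0.033 in 2018 and at -0.28, 0.063 and -0.282 in 2022. With 3 libraries per group these values cannot show whether same-numbered libraries were handled together. With the replicate block 4337 genes were called after injury and 0 with zileuton. Of the 18 prostanoid genes followed through the alternatives, Abcc4, Cbr2 and Ptgdr no longer passed with it (adjusted p = 0.0715, 0.0905 and 0.0920), at log2 fold changes of 0.50, 1.28 and 1.12, and the other calls were kept.

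Signs turned only for genes not called. After injury Cbr1 was at 0.040 with library totals, 0.039 and 0.040 in limma with pseudocounts 1 and 0.1, 0.039 without a filter and 0.006 in the choroid plexus libraries, with -0.047 to 0.001 without 1 mouse, and Ptgs2 was at -0.307 to 0.013 without 1 mouse. With zileuton limma gave 0.006 for Hpgd in its 3 fits and 0.027, 0.028 and 0.027 for Tbxas1. Removing the length trend gave -0.018 for Abcc4, 0.027 for Cbr2 and 0.017 for Prxl2b, and library totals gave -0.002 for Ptgds. The choroid plexus libraries gave 0.030 for Cbr1, 0.066 for Cbr2, -0.088 for Ptgds and 0.079 for Ptges. Without 1 library the ranges were -0.091 to 0.229 for Abcc4, -0.241 to 0.007 for Cbr1, -0.495 to 0.151 for Cbr2, -0.261 to 0.201 for Hpgd, -0.107 to 0.103 for Ptgds, -0.424 to 0.083 for Ptges, -0.544 to 0.007 for Ptgr1 and -0.029 to 0.181 for Ptgs1. The cause of these turns was not tested. Depth limits Ptger2, with 10 to 41 counts a library.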
